A study of Homo sapiens with 24 samples.

Results

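The 10 genes described here are CCNG1 and 9 other classical transcriptional targets of the tumour suppressor p53: CDKN1A, SESN1, GDF15, MDM2, ZMAT3, BBC3, BAX, FAS and TP53I3. They were taken by gene symbol from a table of 60666 genes, in which each symbol matched 1 Ensembl ID. CCNG1 was chosen by its measured fall with the RICTOR siRNA in total RNA of A549 cells, and the question was whether that fall extended to the other p53 targets. The members' values in that contrast are therefore given as a description, and counts of calls in it are no test of the members. CCNG1 is given without a test in every siRIC comparison. All 10 genes passed the filter on low counts in both lines.

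A549 and H460, both lines of human lung cancer and both labelled wild type in genotype, were the 2 lines studied. Each line received either the control siRNA siNT or siRIC, an siRNA against RICTOR, and was sampled as input (total RNA) or as RNA from polysomal fractions. This gave 8 groups of 3 libraries. RICTOR is the subunit that defines mTOR complex 2. The siRNA sequences, doses and times after transfection are not given in the sources used here, and no other RICTOR siRNA was among the groups, so loss of RICTOR and any action of siRIC on other transcripts cannot be told apart. In bulk RNA, a lower level in every cell and a low level in fewer of the cells cannot be told apart either.

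As background, p53 is a transcription factor held at a low level by the ubiquitin ligase MDM2, whose own gene p53 activates, which closes a negative feedback loop. When DNA damage or another stress frees p53 from MDM2, p53 binds response elements made of paired decamer half-sites and raises genes that stop the cell cycle, dampen growth signalling or start apoptosis.

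To show what sequence a p53 response could act on, the bases before an annotated transcript start are printed for 4 of the genes, from RefSeq (GRCh38.p14), 5′ to 3′ on the gene's strand. CCNG1 is shown because its level differed most with siRIC among the 10 genes, MDM2 because its internal start held the most half-sites of any member window, and FAS and SESN1 because theirs held an exact half-site. Capitals mark each p53 decamer half-site with at most 1 mismatch, its invariant C and G required. The CCNG1 sequence is chr5:163437321-163437570 (+), ending at the annotated gene start. The other sequences are chr12:68808767-68809016 (+), chr10:88991181-88991430 (+) and chr6:109008989-109009238 (−), each lying inside the annotated span of its gene.
CCNG1: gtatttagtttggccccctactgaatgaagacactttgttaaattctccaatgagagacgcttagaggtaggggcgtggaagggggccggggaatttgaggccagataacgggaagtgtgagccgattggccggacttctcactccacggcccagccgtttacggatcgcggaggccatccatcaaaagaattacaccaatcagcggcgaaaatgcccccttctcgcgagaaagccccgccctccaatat
MDM2: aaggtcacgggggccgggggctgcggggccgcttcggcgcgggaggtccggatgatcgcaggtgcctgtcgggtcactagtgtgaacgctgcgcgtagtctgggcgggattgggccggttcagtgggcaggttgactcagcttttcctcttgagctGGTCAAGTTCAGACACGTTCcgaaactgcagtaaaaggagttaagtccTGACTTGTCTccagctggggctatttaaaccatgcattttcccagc
FAS: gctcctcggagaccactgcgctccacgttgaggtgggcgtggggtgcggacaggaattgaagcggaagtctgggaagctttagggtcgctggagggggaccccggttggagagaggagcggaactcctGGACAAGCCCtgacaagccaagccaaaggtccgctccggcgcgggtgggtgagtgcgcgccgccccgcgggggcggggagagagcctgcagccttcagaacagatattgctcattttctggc
SESN1: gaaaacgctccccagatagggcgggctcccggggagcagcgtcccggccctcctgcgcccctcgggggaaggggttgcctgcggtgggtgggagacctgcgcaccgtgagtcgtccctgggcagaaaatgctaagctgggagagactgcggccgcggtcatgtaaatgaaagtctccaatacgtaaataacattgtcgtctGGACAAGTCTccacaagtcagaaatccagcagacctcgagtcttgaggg
The decamer is its own reverse complement as a pattern, so the search covered both strands, and adjacent half-sites could abut or overlap. It was run on windows of 300 bases, from 250 before to 50 after each start. In MDM2 the 3 capital runs began 94, 84 and 46 bases before the start, the first pair directly adjacent. In FAS the exact half-site began 122 bases before the start, and in SESN1 it began 49 bases before it. An exact half-site was found in 2 of the 19 windows of these genes, against 6.63% of all 35116 windows, and one with at most 1 mismatch in 12 of the 19, against 45.1% of all windows. Windows of CCNG1, CDKN1A, BAX and TP53I3 held no such half-site. Bases outside the windows were not searched, and the CDKN1A window (chr6:36678464-36678763) lay inside the gene, past its annotated start. A window without a match therefore does not show that its gene lacks p53 elements. Some windows of the same gene overlap, and a match in letters is no evidence of binding.

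Library totals ran from 19087204 to 26550160 estimated counts, and levels are given as TMM-scaled CPM (read counts scaled to a common library size) in the order of replicate numbers 1, 2 and 3. RICTOR was lower in all siRIC groups: 38.4% of the control in A549 total RNA, 35.5% in A549 polysomal RNA, 34.9% in H460 total RNA and 26.8% in H460 polysomal RNA. It passed the adjusted p threshold in A549 (0.0159 and 0.00700, edgeR quasi-likelihood test) and not in H460 (1.0 and 0.620). The call in A549 total RNA was lost in 5 of 12 fits that left out 1 library, with an adjusted p of up to 0.123. In H460 no gene of 14586, RICTOR included, was called in either RNA by edgeR, while 167 and 252 had an unadjusted p under 0.05 and DESeq2 called 4 and 1. The epithelial keratins KRT8 and KRT18 were at 590 CPM or more in every library, KRT19 was below 1 CPM in A549, CDH1 was at 0 in H460, and EPCAM was at 0.395 to 7.05 CPM over all libraries. Of the markers of other cell types, PTPRC, CD3E, PECAM1 and ALB were at or below 0.115 CPM, while the collagen gene COL1A1 was at 3.59 to 10.02 CPM in A549 and 0.434 to 2.17 CPM in H460. Both keratins were lower with siRIC in A549 total RNA, KRT8 at 4171, 3820 and 4664 CPM with siNT and at 2655, 2328 and 3028 CPM with siRIC, and were not called without the block but were with it (adjusted p = 0.0488 for KRT8 and 0.0437 for KRT18). CDH1 was likewise lower in A549, by −0.63 ± 0.32 in total and −0.85 ± 0.33 in polysomal RNA on the log2 scale, and was called with the block (adjusted p = 0.0261 and 0.00164). The part of such shifts in the results was not tested. Of the polysomal libraries, 3 stood apart from their own groups. The H460 siNT and siRIC polysomal libraries of number 3 differed from the other two of their group by 126 to 184 chi-square units per degree of freedom, where those others differed by 52.6 and 53.6. The A549 siRIC polysomal library of number 1 differed by 82.8 and 103, against 35.9 between the others.

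**Figure D1:**
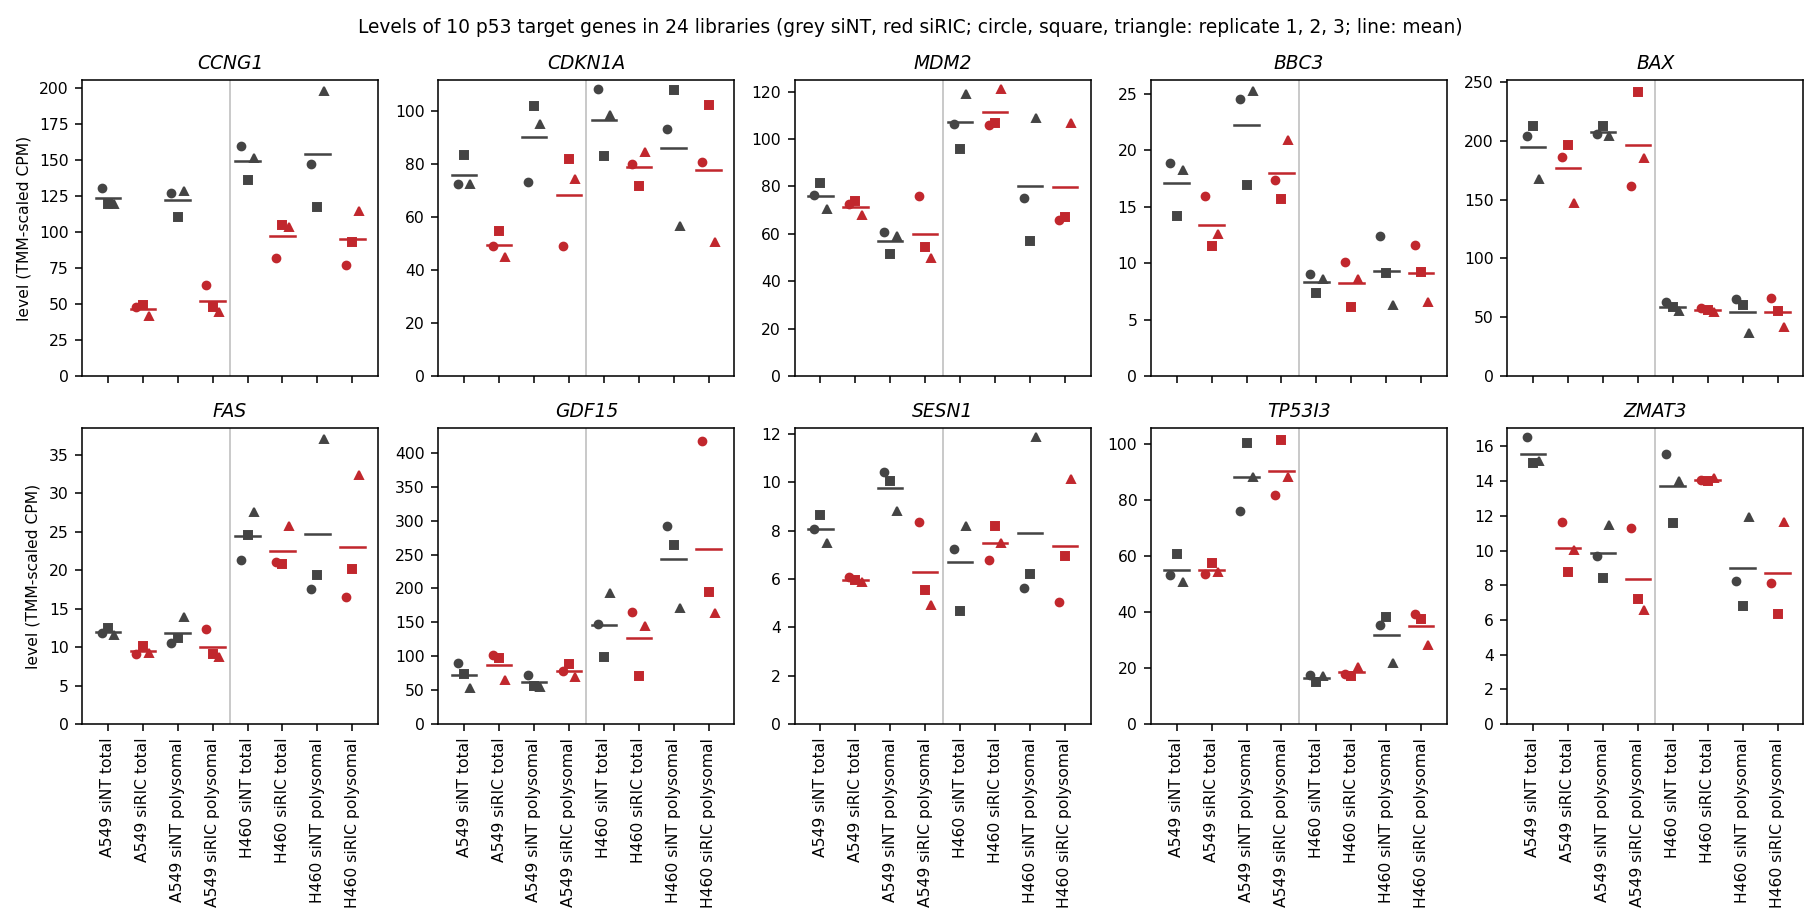
Level of each gene (TMM-scaled CPM, vertical axes from 0) in the 24 libraries by line, siRNA and fraction, with siNT in grey, siRIC in red, replicate numbers as circle, square and triangle, and group means as lines. CCNG1 was lower in all siRIC libraries than in all siNT libraries of the same line and fraction, and BAX, BBC3 and TP53I3 were higher in A549 than in H460.

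CCNG1 (ENSG00000113328, chromosome 5, 163437571 to 163457640, the gene's RefSeq span on GRCh38, as for the genes that follow) encodes cyclin G1, an atypical cyclin that recruits protein phosphatase 2A to MDM2 and thereby takes part in p53 feedback. Control libraries of A549 total RNA were at 130.8, 119.8 and 119.8 CPM and siRIC libraries at 48.3, 49.4 and 41.7 CPM. Polysomal RNA of A549 was at 127.4, 110.7 and 128.8 CPM with siNT and at 63.4, 47.9 and 44.7 CPM with siRIC. The groups did not overlap in either RNA, and siRIC levels were 37.8% and 42.7% of the control. In H460 total RNA the siNT libraries were at 160.0, 136.1 and 151.8 CPM and the siRIC libraries at 82.3, 105.3 and 103.9 CPM. In H460 polysomal RNA they were at 147.4, 117.2 and 197.7 CPM with siNT and at 77.2, 92.9 and 114.9 CPM with siRIC. Here too the groups did not overlap, although the highest siRIC library came close to the lowest siNT library in polysomal RNA, and siRIC levels were 65.5% and 61.9% of the control.

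As log2 fold changes with the standard error (SE) of the edgeR fit, CCNG1 differed by −1.40 ± 0.16 and −1.23 ± 0.16 in A549 total and polysomal RNA and by −0.61 ± 0.22 and −0.69 ± 0.22 in H460. Within pairs of equal number the log2 ratio was −1.44, −1.28 and −1.52 in A549 total RNA and −0.96, −0.37 and −0.55 in H460 total RNA, so all 6 pairs were lower. Without both H460 polysomal libraries of number 3 the H460 polysomal difference was −0.65 ± 0.17, and without the A549 siRIC polysomal library of number 1 the A549 polysomal difference was −1.39 ± 0.12. The H460 difference minus the A549 difference was 0.79 ± 0.26 in total RNA and 0.54 ± 0.26 in polysomal RNA, a smaller estimated fall in H460 in both. Because CCNG1 was chosen by its fall in A549 total RNA, the choice favours a large estimate there. These values are a description and no test of a difference between the lines.

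Ordered by level, CCNG1 was highest in H460 siNT polysomal RNA at 154.1 ± 40.7 CPM (SD, n = 3) and H460 siNT total RNA at 149.3 ± 12.2, followed by A549 siNT total RNA at 123.5 ± 6.34 and A549 siNT polysomal RNA at 122.3 ± 10.1. Then came H460 siRIC total RNA at 97.2 ± 12.9 and H460 siRIC polysomal RNA at 95.0 ± 18.9. The lowest were A549 siRIC polysomal RNA at 52.0 ± 10.0 and A549 siRIC total RNA at 46.5 ± 4.16. Total and polysomal RNA of the same line and siRNA were neighbours in this order and overlapped in every case. CCNG1 did not separate the fractions in any line or with either siRNA. The closest relative of CCNG1, CCNG2 (cyclin G2, a FOXO target rather than a classical p53 target), differed with siRIC by 0.06 and 0.07 in A549 and by 0.11 and 0.15 in H460 on the log2 scale and was not called in any of the 4 comparisons.

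In A549 total RNA, the contrast that put CCNG1 forward, none of the 9 other genes passed the adjusted p threshold with edgeR or DESeq2, 1 of them did with the replicate number as a block (CDKN1A), and 3 had an unadjusted p under 0.05. Of all 15396 genes tested with edgeR, 0.325% passed and 1048 had an unadjusted p under 0.05. DESeq2 called 166 of all genes, and the fit with the block called 258. The median log2 difference was −0.34 for the 10 genes and −0.32 for the 9 without CCNG1 (all genes 0.01). Of the 10, 5 had all siRIC libraries below all siNT libraries, as did 9.61% of all genes. These were CDKN1A, FAS, SESN1, ZMAT3 and CCNG1, the last of them chosen by its fall. None of the 10 had all siRIC libraries above all siNT libraries, as 8.11% of all genes did. These counts, those of calls included, describe the contrast used in the choice and are no test of the members. In A549 polysomal RNA the median was −0.23 both for the 10 genes and for the 9 without CCNG1 (all genes 0.02). Of the 10, 2 lay entirely below the control, CCNG1 and, as the sole gene besides it, SESN1, against 7.15% of all genes. None lay entirely above the control (5.64% of all genes). None of the 9 others was called there by edgeR, where 0.676% of all genes were, or by DESeq2, where 346 of 15396 were. With the replicate block 1 of the 9 (SESN1) was called, as were 540 of all 15396 genes. At an unadjusted p under 0.05 there were 2 of the 9, against 1932 of all 15396 genes. In H460 the medians were −0.04 in total and −0.03 in polysomal RNA, or −0.01 and −0.02 without CCNG1 (all genes 0.02 in both). CCNG1 was the sole gene of the 10 whose groups did not overlap. Of all genes, 6.31% and 1.73% were lower in this way, and 7.87% and 1.36% higher. None of the 9 others was called by edgeR, where 0.0% of all genes were, or by DESeq2, where 4 and 1 of all genes were. Of the 9, 0 had an unadjusted p under 0.05.

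**Figure D2:**
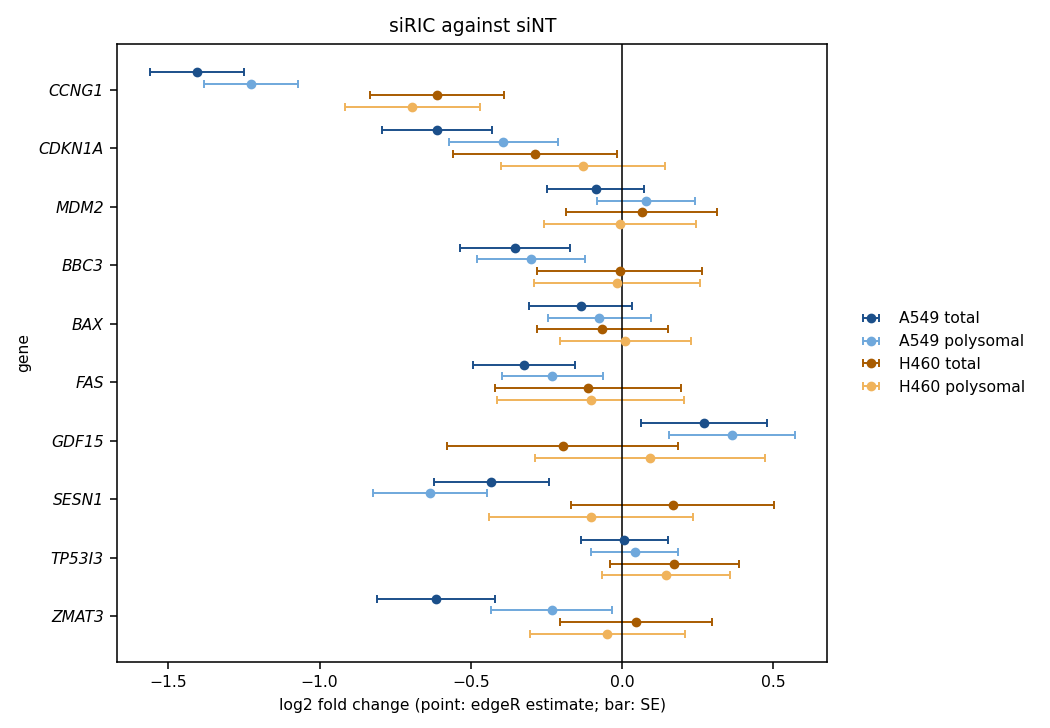
Log2 fold change of siRIC against siNT for each gene in both lines and RNA fractions, with points for edgeR estimates and bars for their SE. CCNG1 lay furthest below 0 in each line, at −1.40 and −1.23 in A549 and −0.61 and −0.69 in H460, while MDM2, BAX and TP53I3 lay within 0.2 of 0 throughout.

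Among the genes of growth arrest, CDKN1A (ENSG00000124762, chromosome 6, 36676463 to 36687332) encodes p21, the cyclin-dependent kinase inhibitor through which p53 blocks entry into S phase. Control libraries of A549 total RNA had 72.4, 83.2 and 72.3 CPM of it and siRIC libraries 49.0, 54.7 and 44.99 CPM, without overlap and with a log2 difference of −0.61 ± 0.18. Polysomal RNA of A549 had 73.2, 101.8 and 95.1 CPM in control libraries and 49.0, 81.9 and 74.3 CPM in siRIC libraries. These groups overlapped, and the difference of −0.39 ± 0.18 did not pass (adjusted p = 0.383, edgeR). Without the siRIC polysomal library of number 1 it was −0.19 ± 0.15 (adjusted p = 0.520). In H460 the differences were −0.29 ± 0.27 in total and −0.13 ± 0.27 in polysomal RNA (adjusted p = 1.0 for both). Within pairs of equal number CDKN1A was lower with siRIC in 3 of 3 pairs in each of the 4 comparisons, the log2 ratios running from −0.68 to −0.08. These comparisons include the contrast used in the choice, and in H460 the groups overlapped in both RNAs. The share of all genes with every pair lower was not computed, here or for the genes that follow.

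SESN1 (ENSG00000080546, chromosome 6, 108984309 to 109094846) encodes sestrin 1, which restrains mTOR complex 1 through AMPK and the GATOR complexes. Its levels in A549 total RNA were 8.08, 8.66 and 7.48 CPM with siNT against 6.08, 5.97 and 5.87 CPM with siRIC, without overlap (log2 difference −0.43 ± 0.19). Its levels in A549 polysomal RNA were 10.4, 10.0 and 8.83 CPM with siNT against 8.34, 5.57 and 4.92 CPM with siRIC, again without overlap. That difference was −0.64 ± 0.19 with an adjusted p of 0.156, which became 0.0355 with the replicate number as a block and 0.0113 (difference −0.89) without the siRIC library of number 1. In H460 SESN1 differed by 0.17 ± 0.33 and −0.10 ± 0.34 (adjusted p = 1.0 for both), and the test of the line difference in polysomal RNA, 0.54 ± 0.39, did not pass (adjusted p = 1.0). At 88 to 290 counts per library SESN1 was thinly covered.

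GDF15 (ENSG00000130513, chromosome 19, 18386158 to 18389176), a secreted stress cytokine of the TGF-β family that is also induced through ATF4, was the member with the largest upward estimate in A549. A549 total RNA held 90.8, 74.1 and 53.6 CPM of it with siNT against 101.6, 97.0 and 64.6 CPM with siRIC, with overlap (log2 difference 0.27 ± 0.21). For polysomal RNA of A549 the difference was 0.36 ± 0.21 (adjusted p = 0.496). In H460 polysomal RNA its siRIC libraries ran from 164.0 to 417.8 CPM, so the estimate of 0.09 ± 0.38 had a wide error, and in total RNA it was −0.20 ± 0.38 (adjusted p = 1.0 for both).

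Of the feedback genes, MDM2 (ENSG00000135679, chromosome 12, 68808172 to 68850686) encodes the ligase that marks p53 for degradation. Levels in A549 total RNA were 76.4, 81.4 and 70.5 CPM with siNT against 72.6, 73.8 and 67.8 CPM with siRIC, so the groups overlapped. Its log2 differences were −0.09 ± 0.16 and 0.08 ± 0.16 in A549 total and polysomal RNA and 0.06 ± 0.25 and −0.01 ± 0.25 in H460, with adjusted p of 0.879 in A549 polysomal RNA (difference −0.12 ± 0.12 without siRIC library 1) and 1.0 in both H460 comparisons (edgeR). MDM2 was covered by 897 to 3099 counts per library and CCNG1 by 1087 to 3647, and their SEs in A549 were alike.

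ZMAT3 (ENSG00000172667, chromosome 3, 179017223 to 179072513) encodes an RNA-binding zinc finger protein that regulates splicing and transcript stability downstream of p53. Libraries of A549 total RNA held 16.5, 15.0 and 15.1 CPM with siNT against 11.7, 8.76 and 10.0 CPM with siRIC, without overlap and with a log2 difference of −0.62 ± 0.20, close to that of CDKN1A. Those of A549 polysomal RNA held 9.68, 8.45 and 11.5 CPM with siNT against 11.3, 7.21 and 6.59 CPM with siRIC. These groups overlapped, and the difference was −0.23 ± 0.20 (adjusted p = 0.672), or −0.50 ± 0.16 (adjusted p = 0.107) without the siRIC library of number 1. In H460 total RNA the siRIC libraries, at 14.1, 13.98 and 14.2 CPM, lay inside the siNT range of 11.6 to 15.6 CPM, and the differences were 0.05 ± 0.25 in total and −0.05 ± 0.26 in polysomal RNA (adjusted p = 1.0 for both).

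Of the apoptosis genes, BBC3 (ENSG00000105327, chromosome 19, 47220824 to 47232860) encodes PUMA, a BH3-only protein that releases BAX, and BAX (ENSG00000087088, chromosome 19, 48954875 to 48961798) encodes the pore former of the outer mitochondrial membrane. BBC3 differed by −0.35 ± 0.18 in A549 total RNA and by −0.30 ± 0.18 in A549 polysomal RNA (adjusted p = 0.511 in the latter), with all 6 pairs of equal number lower. Its siNT and siRIC libraries overlapped in both, at 14.2 to 18.9 against 11.5 to 16.0 CPM in total RNA. BAX differed by −0.14 ± 0.17 and −0.08 ± 0.17 in A549 (adjusted p = 0.894 in polysomal RNA, where it was 0.06 ± 0.16 without siRIC library 1), with overlap in both.

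FAS (ENSG00000026103, chromosome 10, 88964050 to 89017059) encodes a death receptor. In A549 total RNA it was at 11.9, 12.5 and 11.6 CPM with siNT and at 9.14, 10.2 and 9.28 CPM with siRIC, without overlap (log2 difference −0.32 ± 0.17), and in polysomal RNA the groups overlapped with a difference of −0.23 ± 0.17 (adjusted p = 0.601), or −0.40 ± 0.14 (adjusted p = 0.143) without siRIC library 1. TP53I3 (ENSG00000115129, chromosome 2, 24077433 to 24084834) encodes PIG3, a quinone oxidoreductase linked to oxidative stress, and its A549 siRIC libraries lay at 53.5 to 57.6 CPM against 50.9 to 60.7 CPM with siNT in total RNA, a difference of 0.01 ± 0.14. Its polysomal difference in A549 was 0.04 ± 0.14 (adjusted p = 0.936), or 0.12 ± 0.14 without siRIC library 1. In H460 the 4 apoptosis genes had estimates between −0.11 (FAS, total RNA) and 0.17 (TP53I3, total RNA), with SEs of 0.21 to 0.31 and adjusted p of 1.0. A p that misses the threshold does not show that levels were equal.

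The wider set of p53 genes was read next. Of 35 other p53 targets, 34 were tested in A549. Of the 35, 0 were called in any of the 4 siRIC comparisons by edgeR, by DESeq2 or with the replicate number as a block. By edgeR, 0.325% and 0.676% of all genes were called in A549 total and polysomal RNA and 0.0% in both RNAs of H460. DESeq2 called 166 and 346 of all 15396 genes in A549 and 4 and 1 of 14586 in H460. With the block 258 and 540 were called in A549 and 0 in both RNAs of H460. At an unadjusted p under 0.05 there were 4 and 5 in A549 total and polysomal RNA, against 1048 and 1932 of all 15396 genes, and 0 in H460, against 167 and 252 of 14586. Their median log2 differences were −0.09 and −0.07 in A549 and 0.01 and 0.03 in H460. In A549 the medians of those genes lay nearer to the all-gene medians of 0.01 to 0.02 than those of the 9 members without CCNG1, −0.32 and −0.23. Members and lists were chosen with earlier results of these data known, so this is a description and was not tested.

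CDKN2A, a locus known to be deleted in both lines, had 0 counts in all 24 libraries. Of 10 cell cycle genes that p53 lowers through p21, among them CCNB1, CDK1 and PLK1, 0 were called with siRIC in any of the 4 comparisons. Of all genes, 0.325% and 0.676% were called in A549 total and polysomal RNA and 0.0% in both RNAs of H460. At such shares a count of 0 among 10 genes says little about them.

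The comparison of polysomal with total RNA in siNT cells, which is another contrast than the one that chose CCNG1 but shares the A549 siNT total libraries with it, asked how these mRNAs divided between ribosome-bound and input RNA. Of the 10 genes, 2 were called in A549, where 37.1% of all genes were (18.3% higher, 18.8% lower), and 1 in H460, where 22.9% were (12.5% higher, 10.5% lower). TP53I3 rose in the polysomal fraction in both lines. In A549 it was at 53.4, 60.7 and 50.9 CPM in total and at 76.1, 100.4 and 88.1 CPM in polysomal RNA, a log2 ratio of 0.70 ± 0.14 (adjusted p = 0.00145, edgeR). In H460 it was at 17.6, 14.9 and 17.1 CPM in total and at 35.5, 38.3 and 21.9 CPM in polysomal RNA, a log2 ratio of 0.93 ± 0.21 (adjusted p = 0.00861), or 1.17 ± 0.12 without both polysomal libraries of number 3. The groups did not overlap in either line. Over all genes, 26.1% in A549 and 18.7% in H460 were higher in this way, SESN1 among them in A549, and 29.1% and 18.8% were lower, MDM2 and ZMAT3 among them in A549.

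ZMAT3 fell in the polysomal fraction of A549, with a log2 ratio of −0.64 ± 0.20 (adjusted p = 0.0167) and no overlap between 15.0 to 16.5 CPM in total and 8.45 to 11.5 CPM in polysomal RNA. That call was lost without the siNT polysomal library of number 2 (adjusted p = 0.0789) or the siNT total library of number 1 (adjusted p = 0.0613). In H460 its ratio was −0.62 ± 0.26 (adjusted p = 0.100), which became 0.0240 with the replicate block and 0.00215 (ratio −0.85) without both polysomal libraries of number 3. MDM2 had ratios of −0.40 ± 0.16 in A549 (adjusted p = 0.0630, with the block 0.0255, and 0.01002 without the siRIC polysomal library of number 1, which shares the fit) and −0.42 ± 0.25 in H460 (adjusted p = 0.253, with the block 0.0470, and 0.00273 at a ratio of −0.68 without both libraries of number 3). BBC3 had 0.40 ± 0.18 in A549 (adjusted p = 0.0932, with the block 0.0189, and 0.0301 at 0.56 without siNT polysomal library 2) and 0.14 ± 0.27 in H460. CCNG1 had 0.00 ± 0.15 in A549 and 0.04 ± 0.22 in H460 (adjusted p = 0.925 in H460), or −0.16 ± 0.15 in H460 without both polysomal libraries of number 3. GDF15 had −0.23 ± 0.21 in A549 and 0.71 ± 0.38 in H460, and SESN1 had 0.29 ± 0.19 and 0.24 ± 0.34. CDKN1A had 0.26 ± 0.18 in A549 and −0.18 ± 0.27 in H460, and BAX had 0.11 ± 0.17 and −0.14 ± 0.22. FAS had −0.002 ± 0.17 in A549 and 0.01 ± 0.31 in H460. None of these was called. Without both H460 polysomal libraries of number 3, the H460 ratio of FAS was −0.395 ± 0.155 (adjusted p = 0.0567, edgeR). Those of SESN1, BAX and CDKN1A changed sign, to −0.16 ± 0.24, 0.11 ± 0.11 and 0.07 ± 0.15. BBC3 was then at 0.39 ± 0.22 and GDF15 at 0.94 ± 0.38, and none of these values passed the threshold either.

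**Figure D3:**
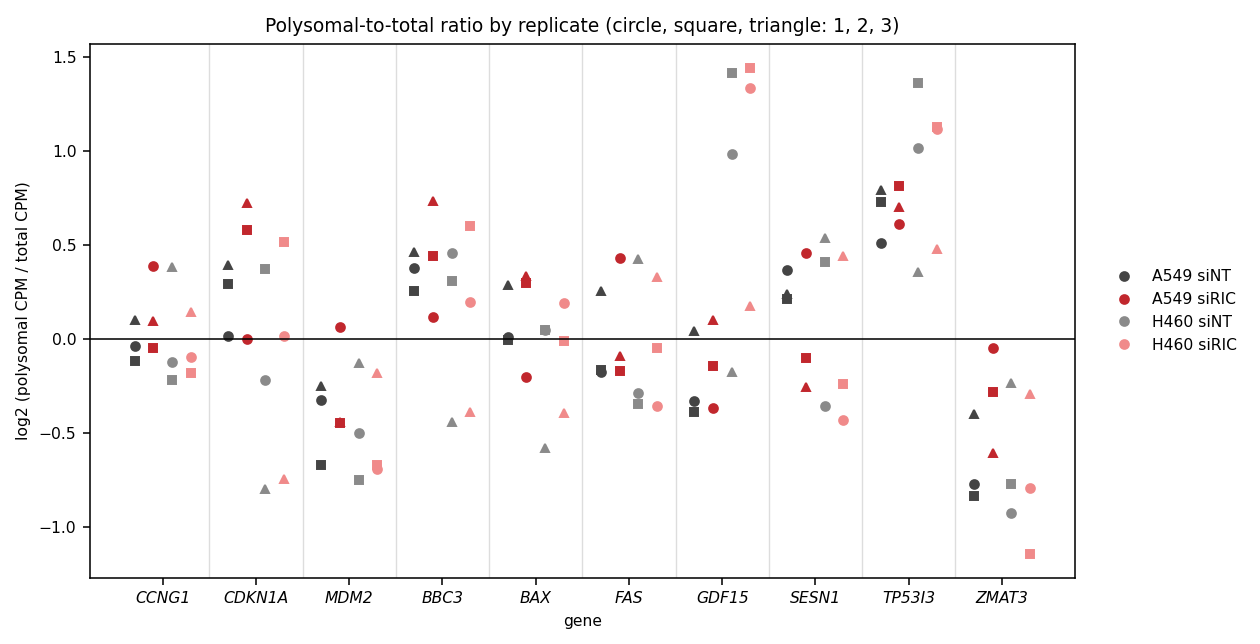
Log2 ratio of polysomal to total CPM within each line, siRNA and replicate number (circle, square and triangle for 1, 2 and 3) for the 10 genes. TP53I3 lay above 0 in all 12 ratios, CCNG1 scattered around 0, and in H460 the triangles of number 3 often lay apart from the other two.

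The same ratios could be read in siRIC cells. For TP53I3 the log2 ratio within pairs of equal number was 0.61, 0.82 and 0.70 in A549 siRIC cells and 1.12, 1.13 and 0.48 in H460 siRIC cells. The ratio with siRIC minus the ratio with siNT ran from −0.20 (SESN1) to 0.38 (ZMAT3) over the 10 genes in A549, a comparison that contains the contrast used in the choice. Without the A549 siRIC polysomal library of number 1 it ran from −0.46 (SESN1) to 0.42 (CDKN1A), with ZMAT3 at 0.11. In H460 it ran from −0.27 (SESN1) to 0.29 (GDF15). None of the 9 tested genes was called there (adjusted p = 0.9999 for each, edgeR), 0.0% of all genes were, and the unadjusted p of these 9 ran from 0.578 to 0.983. For CCNG1 the change was 0.18 ± 0.22 in A549 (0.01 ± 0.16 without that library) and −0.08 ± 0.31 in H460. Its fall was thus similar in size in total and polysomal RNA within those errors.

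Of the 35 other p53 targets, 5 rose and 9 fell in the polysomal fraction of A549 among 34 tested, and 6 rose and 5 fell in H460, against 18.3% and 18.8% of all genes in A549 and 12.5% and 10.5% in H460. FDXR, a mitochondrial ferredoxin reductase, rose by 1.65 ± 0.13 in A549 and 1.53 ± 0.28 in H460 on the log2 scale (adjusted p = 1.40e-06 and 0.00228), and DDB2, a DNA damage sensor of nucleotide excision repair, rose by 0.96 ± 0.13 and 1.03 ± 0.17 (adjusted p = 4.78e-05 and 0.00131). CES2, a carboxylesterase, fell by 0.99 ± 0.14 and by 1.08 ± 0.18 (adjusted p = 6.02e-05 and 0.00129). Of the 10 cell cycle genes lowered through p21, 7 rose in the polysomal fraction of A549 and 5 in H460, against 18.3% and 12.5% of all genes, and 0 fell in either. CCNB1, the mitotic cyclin B1, had the smallest p in both lines, at 1.04 ± 0.14 and 1.31 ± 0.14 (adjusted p = 4.41e-05 and 0.000194).

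The lines were then compared in siNT cells, a contrast that in total RNA also shares the A549 siNT libraries with the one that chose CCNG1. Of the 10 genes, 5 were called in total RNA, where 55.1% of all genes were, and 6 in polysomal RNA, where 58.2% were, so the members' shares lay near those of all genes. By direction, 2 of the 10 were higher and 3 lower in H460 total RNA (26.2% and 28.9% of all genes), and 3 were higher and 3 lower in polysomal RNA (29.9% and 28.3%). BAX, BBC3 and TP53I3 were lower in H460. BAX was at 204.2, 212.6 and 167.3 CPM in A549 and at 63.0, 58.7 and 55.1 CPM in H460 total RNA, a log2 difference of −1.72 ± 0.21 (adjusted p = 1.94e-07, edgeR), and −1.93 ± 0.21 in polysomal RNA (adjusted p = 3.51e-08). BBC3 was at 18.9, 14.2 and 18.3 CPM in A549 and at 9.06, 7.40 and 8.59 CPM in H460 total RNA (−1.04 ± 0.25, adjusted p = 0.00122), and differed by −1.26 ± 0.25 in polysomal RNA (adjusted p = 0.000173). TP53I3 differed by −1.73 ± 0.19 in total and by −1.47 ± 0.18 in polysomal RNA (adjusted p = 3.71e-08 and 3.90e-07). These 3 genes did not overlap between the lines in either RNA, and 37.6% and 28.7% of all genes were lower in H460 in this way.

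The death receptor FAS and the secreted GDF15 went the other way. FAS was at 11.9, 12.5 and 11.6 CPM in A549 and at 21.3, 24.6 and 27.6 CPM in H460 total RNA, a difference of 1.03 ± 0.25 (adjusted p = 0.00122), and of 1.06 ± 0.25 in polysomal RNA (adjusted p = 0.000919), where it was 0.64 ± 0.17 (adjusted p = 0.00238) without both H460 libraries of number 3. GDF15 was at 90.8, 74.1 and 53.6 CPM in A549 and at 147.7, 99.2 and 193.8 CPM in H460 total RNA, a difference of 1.01 ± 0.33 (adjusted p = 0.0130). That call was lost without A549 siNT total library 3 (adjusted p = 0.0702) or H460 siNT total library 3 (adjusted p = 0.0830). In polysomal RNA GDF15 was at 72.4, 56.7 and 55.3 CPM in A549 and at 292.2, 264.7 and 171.9 CPM in H460, a difference of 1.98 ± 0.34 (adjusted p = 3.24e-05). Neither gene overlapped between the lines in either RNA, and in total RNA CCNG1 and MDM2 were also higher in H460 without overlap. Of all genes, 35.4% in total and 28.1% in polysomal RNA were higher in H460 in this way.

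MDM2 was at 76.4, 81.4 and 70.5 CPM in A549 and at 106.3, 95.8 and 118.9 CPM in H460 total RNA, and its difference of 0.49 ± 0.21 missed the threshold (adjusted p = 0.0516, with the block 0.00756). In polysomal RNA the difference of 0.49 ± 0.21 just passed (adjusted p = 0.0499), with overlap, and fell to 0.13 (adjusted p = 0.592) without H460 siNT polysomal library 3 and to 0.21 (adjusted p = 0.262) without both H460 polysomal libraries of number 3. SESN1 differed by −0.30 ± 0.27 in polysomal RNA (adjusted p = 0.354), or by −0.79 (adjusted p = 0.0145) without H460 siNT polysomal library 3. CCNG1 differed by 0.27 ± 0.19 in total RNA and 0.33 ± 0.19 in polysomal RNA (adjusted p = 0.127 in polysomal RNA), or 0.12 ± 0.16 in polysomal RNA without both H460 libraries of number 3. CDKN1A differed by 0.35 ± 0.24 and −0.07 ± 0.24 (adjusted p = 0.224 and 0.818), and was called in total RNA with the compared groups alone (adjusted p = 0.0169, edgeR). ZMAT3 differed by −0.18 ± 0.23 and −0.13 ± 0.24 (adjusted p = 0.526 and 0.651).

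**Figure D4:**
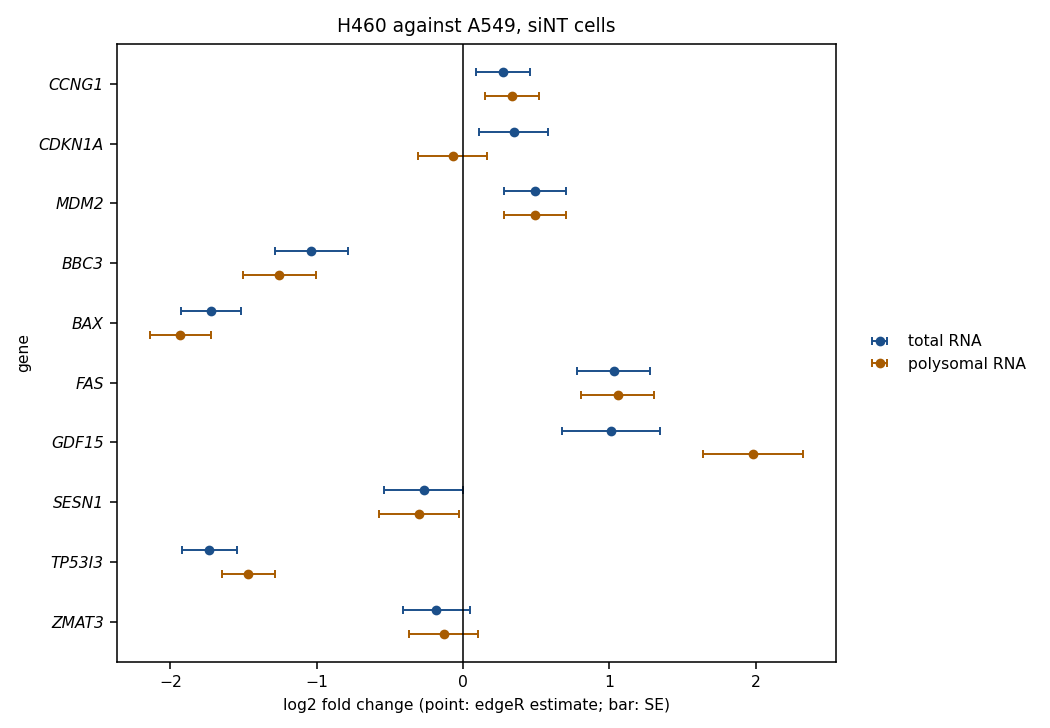
Log2 fold change of H460 against A549 in siNT cells for the 10 genes, with points for edgeR estimates in total and polysomal RNA and bars for their SE. BAX, TP53I3 and BBC3 lay below −1 and FAS and GDF15 above 1 in both RNAs, while CCNG1, CDKN1A, SESN1 and ZMAT3 lay within 0.5 of 0.

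MDM4, a p53 inhibitor related to MDM2, was higher in H460 by 1.15 ± 0.17 on the log2 scale in total RNA (adjusted p = 4.83e-06, edgeR). With siRIC it differed by 0.30 ± 0.13 and 0.02 ± 0.13 in A549 total and polysomal RNA and by 0.08 ± 0.19 and 0.18 ± 0.20 in H460. It was not called there. In A549 total RNA it was higher without overlap, as were 8.11% of all genes. Its polysomal-to-total log2 ratio with siNT was −0.53 ± 0.13 in A549 and −0.76 ± 0.20 in H460 (adjusted p = 0.00500 and 0.0159, edgeR). Of the 35 other p53 targets, 13 were higher and 10 lower in H460 in each RNA, against 26.2% and 28.9% of all genes in total and 29.9% and 28.3% in polysomal RNA. RPS27L, a ribosomal protein paralog whose reads may be shared with RPS27, was lower by −2.08 ± 0.24 and DDB2 by −1.17 ± 0.14 in total RNA (adjusted p = 1.04e-07 and 3.52e-07), while CES2 was higher by 1.26 ± 0.15 (adjusted p = 2.77e-07).

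The siRIC effect in H460 minus that in A549 was tested for the 9 other genes in polysomal RNA. None passed (adjusted p = 1.0 for each, edgeR), where 0.00606% of all genes did, and the differences ran from −0.27 ± 0.47 (GDF15) to 0.54 ± 0.39 (SESN1). In total RNA, which contains the contrast used in the choice, they ran from −0.47 ± 0.47 (GDF15) to 0.66 ± 0.33 (ZMAT3).

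To ask which transcripts followed CCNG1, log2 CPM was centred on the mean of each line and fraction and correlated with CCNG1 over the 24 libraries, among 10826 genes. The 5 genes with the highest Pearson r were VAPA (0.958), PTGR1 (0.945), HPRT1 (0.944), HMGN1 (0.938) and ANXA5 (0.930), none of them among the p53 targets listed here. RICTOR had r = 0.898 and ranked 11. Of the other 9 genes, ZMAT3 came nearest at r = 0.674, rank 182, then SESN1 at 0.656 and FAS at 0.589, while CDKN1A was at 0.405, rank 1092. MDM2 was at 0.300, BBC3 at 0.235 and BAX at 0.00646, and GDF15 and TP53I3 were negative at −0.297 and −0.370. These are descriptions over libraries that share siRNA, depth and replicate number, and carry no test. The centring left the difference between siRIC and siNT in place. The values of r therefore include that difference, with the contrast used in the choice among it.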

How the data were processed

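Total and polysomal RNA of A549 and H460 cells were sequenced, with 3 libraries in each of 8 groups. The authors deposited estimated counts per gene (merged salmon output, per the file headers), not normalized; the submitters' processing notes name bcl2fastq 2.20 and GRCh38. No source used here gives the aligner settings, annotation or filters. In the labels, the molecule is polyA RNA while their protocol names a stranded ribosomal RNA depletion kit, which was not settled. Of the values 9.40% were not whole, and they were rounded. Of 60666 IDs, 60437 matched a gene name. Library totals were 19087204 to 26550160.

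Genes were filtered with filterByExpr, scaled by TMM and tested with edgeR 4.0.16 (glmQLFit, glmQLFTest) in R 4.3.3, with 12 libraries per line, or all 24 for comparisons between lines. The p-values were adjusted by Benjamini-Hochberg over all genes, with a threshold of 0.05, and the SE is the absolute log2 change over the square root of F. No label says that libraries came from separate cultures, so the p-values measure no more than how these libraries vary, which may be technical. Replicates differed by more than sampling noise (chi-square per degree of freedom 8.82 to 184). The labels give the replicate number as a batch, so numbers pair the libraries within a line, and the block is nested in line. Library names carry other numbers, which group the libraries of a line in the same way, are partly shared between lines under different replicate numbers, and are not explained by the labels. Deviations from the group mean correlated with r of 0.0207 to 0.259 in A549 and 0.0464 to 0.670 in H460 at equal numbers. At different numbers r was −0.273 to 0.0225 in A549 and −0.502 to 0.126 in H460. The reported fits have no block, so their SEs and p-values take no account of this pairing.

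All 10 genes are named with siRIC, for polysomal against total RNA and between the lines. For the ratio changes and line differences, ranges are given with the genes at their ends, and CCNG1. Of the other lists, at most the 3 called genes with the smallest p per comparison are named, and MDM4 and CCNG2. A gene that this rule takes is not reported here. The members and lists were chosen with earlier results of these data known. Alternatives were the replicate block, DESeq2 1.42.0, RLE scaling in place of TMM, no filter, fits of the compared groups alone, each library left out, and both H460 polysomal libraries of number 3 left out. The scripts were tested on simulated data.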

Additional observations from a re-analysis of the deposited data

How the results depend on the processing

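No value reversed. Of 2580 log2 values of the members under the alternatives, 2382 kept their direction and side of the threshold, 28 lost a call, 31 gained one, and 139 changed sign while uncalled in both. Counts of members called, which include CCNG1 with siRIC in A549 although it was chosen there, moved as follows. With siRIC in A549 total RNA the count of 1 became 2 with the replicate block, with no filter and with the compared groups alone, through CDKN1A, and stayed at 1 without any 1 library. In A549 polysomal RNA 1 became 2 with the replicate block, through SESN1, and ran from 1 to 2 without 1 library, with 2 without siRIC library 1. For polysomal against total RNA, A549 went from 2 to 4 with the block and with the compared groups alone (1 to 3 without 1 library, with 1 without siNT total library 1), and H460 from 1 to 3 with the block and without both polysomal libraries of number 3 (1 to 3 without 1 library, with 3 without siNT polysomal library 3). H460 against A549 in total RNA went from 5 to 8 with the compared groups alone, through CCNG1, CDKN1A and MDM2 (4 to 6 without 1 library). In polysomal RNA it ran from 5 to 6, MDM2 being lost in 19 of 24 fits without 1 library. Counts over all genes moved more. With siRIC in A549 total RNA 50 became 258 with the block, 166 by DESeq2, 257 with no filter, 152 with the compared groups alone and 7 to 172 without 1 library, and in polysomal RNA 104 became 540, 346, 413, 35 and 19 to 456. In H460, polysomal against total RNA went from 3347 to 5187 with the block, 7031 without both polysomal libraries of number 3, 2146 with the compared groups alone and 1832 to 4580 without 1 library. Where the count was 0 or 1, no filter gave up to 59 genes in the ratio change of A549, and 52 and 47 in the line differences. The causes were not tested. Depth limits SESN1 (88 to 290 counts), ZMAT3 (107 to 415) and BBC3 (117 to 682) most.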
